A study of Mus musculus with 2 samples.

Results

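Genes for copying DNA and for making its building blocks form a set of 38 mouse genes here: the MCM helicase (Mcm2 to Mcm7), origin recognition and loading (Orc1 to Orc6, Cdc6, Cdt1), helicase activation (Mcm10, Cdc45, Gins1 to Gins4), the sliding clamp and its loader (Pcna, Rfc1 to Rfc5), polymerases and primase (Pola1, Pola2, Prim1, Prim2, Pold1, Pole), nucleotide synthesis (Rrm1, Rrm2, Tk1, Tyms) and strand maturation (Lig1, Fen1). They were chosen by name, not by a measured value, from the 21853 protein-coding genes with an annotated protein-coding start. Earlier results of these data were known when they were chosen. Chromatin accessibility at these genes was read from libraries labelled ATAC-seq, an assay that uses a transposase to cut DNA where nucleosomes and other proteins leave it exposed. The samples were 2 libraries of primary T cells of C57BL/6NJ mice, labelled biological replicates 1 and 2. Both form 1 group, with no treatment, time, sex or age given in the labels and no other group to compare with. A linked protocol title names differentiation of CD4+ T cells, and the region names in both files carry the tags Th0, 72 hrs, sorted, masked, dedup and ASTARR.insert, none of which the labels explain. The assay is given here as the labels name it. The records name the same donor for both, and nothing says that the cells came from separate animals, so the spread between libraries may be technical.

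Before S phase, the origin recognition complex marks sites on DNA, and Cdc6 and Cdt1 load the MCM hexamer there. Cdc45 and the GINS complex then turn that hexamer into an active helicase, primase and the polymerases copy both strands with the help of the Pcna clamp, and Fen1 and Lig1 join the fragments. Ribonucleotide reductase, thymidylate synthase and thymidine kinase supply the nucleotides. Many of these genes are classical targets of E2F factors, which the retinoblastoma protein holds in check in resting cells, and a T cell that leaves rest turns them on. Accessibility at a promoter is not a measure of its transcript, which was not analysed here.

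Of the T-cell markers examined, 9 of 10 had an accessible promoter in both libraries: Cd3d, Cd3e, Cd3g, Cd2, Cd5, Lck, Thy1, Cd4 and Bcl11b, but not Cd247. The B-cell list gave 1 of 6 (Pax5), the myeloid list 2 of 6 (Cd68, Mpo) and the hepatocyte list 0 of 5. Of all protein-coding genes, 62.8% had one. Presence does not give the level. The mean of the authors' signal value was 10.3 for Pax5, as for Lck, the highest T-cell marker. Cd68 (4.06) and Mpo (3.54) were above Cd4 (3.04) and Cd2 (2.53), and below the other T-cell markers with a promoter. The lists held 78104 regions in replicate 1 and 74733 in replicate 2. Read depth is unknown, so a gene with no region cannot be told from a gene below the authors' threshold. With a single group there is no test between conditions, and values are given per library with the same value over other protein-coding genes beside them.

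The sequences that E2F factors are known to bind lay within 100 bp of the promoter summits of all genes of the MCM ring. The search used 4 words of 8 letters on both strands, TTTCCCGC, TTTCGCGC, TTTGCCGC and TTTGGCGC, in the 200 bp around the summit, the most accessible point of the promoter region of replicate 1. All 6 of Mcm2, Mcm3, Mcm4, Mcm5, Mcm6 and Mcm7 held a match, against 2.91% of the 13724 protein-coding genes with an accessible promoter in both libraries. The matches are printed below with 8 bases on each side, in capitals, read on the strand that carries the word. This count depends on the window: in 100 bp around the summit only Mcm6 held a match, and from 250 bp before to 50 bp after the 5′ end 4 did (Mcm3, Mcm4, Mcm5, Mcm6). All positions are on GRCm38 (mm10), with sequence from RefSeq. In Mcm2 the match lies at chr6:88898679-88898706 (plus strand), in the UTR part of an exon, and consists of 2 words that overlap on opposite strands.
Mcm2: ccaccggtTTTCGCGCGAAAactagacc
Mcm3 has a pair of separate matches in its 5′ UTR exon, at chr1:20820259-20820282 (minus strand) and chr1:20820278-20820301 (plus strand).
Mcm3 farther from the start: tgggaagtTTTGGCGCcaaggcgg
Mcm3 nearer the start: tcccaagtTTTCCCGCcacggaag
Both matches of Mcm4 lie before its start, at chr16:15637463-15637486 (minus strand) and chr16:15637609-15637632 (minus strand), in the stretch it shares with the gene Prkdc, which is read the other way.
Mcm4 near the start: tacacgccTTTGCCGCtgtgattg
Mcm4 farther upstream: gccccgggTTTCCCGCcaaaacgc
Mcm5 has a match next to its start at chr8:75109553-75109576 (plus strand), and an overlapping pair of words farther upstream at chr8:75109348-75109375 (plus strand), outside the 200 bp.
Mcm5 at the start: ggctggttTTTCCCGCgaaagtcg
Mcm5 upstream pair: ccaagaacTTTCGCGCCAAAacgtccag
Mcm6 has a single word at chr1:128359737-128359760 (minus strand) and an overlapping pair at chr1:128359796-128359823 (plus strand), all before its start.
Mcm6 single word: tggacgggTTTGGCGCgaagtagc
Mcm6 pair: cacgcactTTTCGCGCCAAAagcatacg
In Mcm7 the match within the window is at chr5:138172033-138172056 (plus strand), which is also in an exon of the neighbour Ap4m1, and another is at chr5:138171852-138171875 (minus strand).
Mcm7 in the window: acaccctgTTTCCCGCggttcgaa
Mcm7 outside the window: tgacgacgTTTCGCGCcaatttcg

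The bases just before the start of Mcm3, Mcm4, Mcm5 and Mcm6 are printed with their matches to these words and to CCAAT, the box bound by NF-Y. The same stretch of Mcm2 held neither an E2F word nor CCAAT, and that of Mcm7 overlaps an annotated exon or UTR, so both are left out. Each stretch is the 150 bases before the annotated start nearest the summit, read in the direction of the gene, and overlaps no annotated UTR and no exon of a protein-coding transcript. Capitals mark the E2F words and CCAAT on either strand (ATTGG is CCAAT read from the other strand). The stretches are chr1:20820313-20820462 for Mcm3 (minus strand), chr16:15637401-15637550 for Mcm4 (minus strand), chr8:75109419-75109568 for Mcm5 (plus strand) and chr1:128359665-128359814 for Mcm6 (minus strand).
Mcm3: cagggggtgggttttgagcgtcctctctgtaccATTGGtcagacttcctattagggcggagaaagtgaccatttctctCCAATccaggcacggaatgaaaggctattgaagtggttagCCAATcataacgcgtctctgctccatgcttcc
Mcm4: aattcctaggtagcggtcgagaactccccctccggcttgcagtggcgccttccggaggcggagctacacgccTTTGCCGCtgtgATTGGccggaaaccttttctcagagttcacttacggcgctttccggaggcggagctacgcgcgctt
Mcm5: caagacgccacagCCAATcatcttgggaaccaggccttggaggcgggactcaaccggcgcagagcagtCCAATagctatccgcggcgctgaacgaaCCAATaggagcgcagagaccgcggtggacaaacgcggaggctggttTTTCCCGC
Mcm6: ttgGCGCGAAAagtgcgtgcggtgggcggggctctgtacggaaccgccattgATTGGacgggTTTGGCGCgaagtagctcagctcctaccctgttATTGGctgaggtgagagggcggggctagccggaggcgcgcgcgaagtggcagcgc
Mcm3 and Mcm5 have 3 CCAAT boxes each in these bases, Mcm6 has 2 and Mcm4 has 1. The E2F words of Mcm3 lie after its start and so fall outside its stretch. The overlapping pair of Mcm6 is cut by the far end of its stretch, so 1 of its words is in capitals there.

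Across all 37 of the genes with an accessible promoter in both libraries, 12 (32.4%) held an E2F word in the 200 bp. Beside the MCM genes these were Orc3, Gins3, Rfc3, Pola1, Pold1 and Pole, that is 1 origin, 1 GINS and 1 clamp-loader gene and the catalytic subunits of the 3 replicative polymerases. The same 12 genes were found with the replicate 2 summit (background 2.99%). None of the 3 nucleotide synthesis genes searched (Rrm1, Rrm2, Tyms) and neither Lig1 nor Fen1 had one there. A window of 100 bp left 4 genes (Gins3, Mcm6, Pole, Rfc3), against 1.32% of all 13724. From 250 bp before to 50 bp after the 5′ end, 11 genes had one (29.7%, background 3.87%): Mcm3, Mcm4, Mcm5, Mcm6, Orc1, Orc3, Cdc6, Cdt1, Rfc3, Pola1 and Pole.

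More than 1 E2F word in this window was rare. Of the 13724 genes with an accessible promoter, 11 (0.0802%) had 2 or more, and 5 of these belonged to the set (Mcm2, Mcm3, Mcm4, Mcm6, Rfc3). Genes that share a promoter region were each counted. Among the others were E2f1, which codes for an E2F factor itself, the histone genes Hist1h3a and Hist1h4a, and Prkdc, which shares its promoter with Mcm4. Mcm6 was the 1 gene of all with 3 words. In Rfc3, which codes for a clamp-loader subunit, the words lie in the 5′ UTR exon at chr5:151651193-151651216 (plus strand) and chr5:151651203-151651226 (minus strand).
Rfc3 plus strand: agtagagtTTTCCCGCgagcgcga
Rfc3 minus strand: tcgcacgcTTTCGCGCtcgcggga

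Other genes of the set carried the word in the promoter region but away from its summit. Over the whole region of replicate 1, 22 of the 37 (59.5%) had a match, against 12.9% of the 13724. This search was added after the data were seen. The genes gained were Orc1, Cdc6, Cdt1, Gins1, Gins2, Gins4, Pcna, Rrm2, Tyms and Lig1. The sites of 4 genes for origin licensing or nucleotides are shown because they lie in the region but outside the 200 bp: Orc1 at chr4:108579419-108579442 (minus strand), Cdc6 at chr11:98907833-98907856 (plus strand), Cdt1 at chr8:122568039-122568062 (plus strand) and Rrm2 at chr12:24708734-24708757 (plus strand).
Orc1: agaaaactTTTCGCGCcactaacc
Cdc6: agagcggcTTTGGCGCgagttgac
Cdt1: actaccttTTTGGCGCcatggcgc
Rrm2: gactcttcTTTCCCGCcaaagtgt
From the summit of replicate 1 these lay 112, 108, 182 and 284 bp downstream, in the direction of the gene. The printed words of Cdc6 and Cdt1 are in the 5′ UTR exon. Those of Orc1 and Rrm2 fall inside the annotated gene but outside the exons of its protein-coding transcripts, 24 and 6 bp before a start of the same gene. Cdc6 has another match, not printed, at chr11:98908005-98908028 (minus strand). It lies 280 bp downstream of the summit, inside the gene but outside such exons. The match of Gins1, at chr2:150909577-150909604 (plus strand), is a perfect palindrome of overlapping words and lies 164 bp upstream of the summit.
Gins1: tgagcctaTTTGGCGCCAAAgcgaggag

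**Figure D1:**
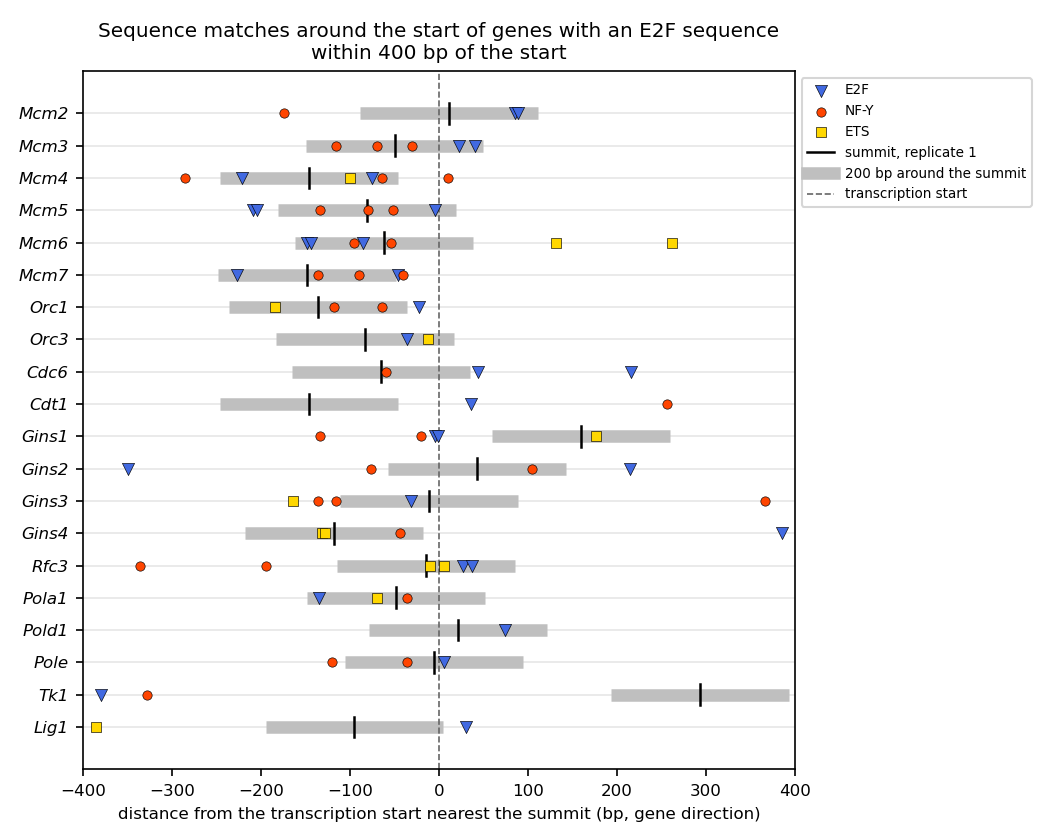
Positions of E2F, NF-Y (CCAAT) and ETS words in bp from the transcription start nearest the replicate 1 summit, in the direction of the gene, for the 20 genes with an E2F word within 400 bp of that start. Grey bars are the 200 bp around the summit and black ticks the summit; each MCM gene has an E2F word inside its bar, and those of Orc1, Cdc6, Cdt1 and Lig1 lie outside theirs.

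Merged where they overlapped, the matches at the summits came to 16 sites. Of these, 10 lay before the nearest start and 12 lay within 100 bp of it, from 226 bp upstream to 88 bp downstream. By the annotation, 9 were in a UTR exon of the gene and 7 were upstream of it. Nearness to a start was in part set by the search, which took words within 100 bp of a summit. All 12 genes had their mean summit distance within 150 bp of a start, against 73.4% of the 399 genes with a word. Site positions in those other genes were not counted. The median distance from the summit to the nearest E2F word was 62 bp in the 12 genes and 51 bp over all genes with a word. The 12 promoters with a word were not the strongest of the set: their median signal was 11.7, against 13.7 in the 25 without. Over all genes the order was the other way, 11.9 with a word and 11.2 without.

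Other words were counted in the same window. NF-Y's CCAAT was present in 19 of 37 (background 30.4%), among them 5 of the 6 MCM genes (not Mcm2), Cdc6, Orc1, Orc2, Orc6, Cdc45, Gins2, Gins4, Mcm10, Pola1, Pole, Prim1, Pcna, Rfc1 and Rrm1. The ETS word CCGGAAG was in 14 (background 15.0%): Mcm4, Mcm10, Orc1, Orc3, Orc4, Orc5, Gins1, Gins4, Rfc3, Rfc4, Rfc5, Pola1, Tyms and Fen1. Both E2F and CCAAT occurred in Mcm3, Mcm4, Mcm5, Mcm6, Mcm7, Pola1 and Pole. The share of all accessible promoters with both words was not counted, so no pairing of the words can be read from this list. The Sp and KLF word GGGCGG was in 24 (background 58.9%). A looser E2F core of 7 letters, the 8-letter words without their leading T, was in 17 (background 13.8%). The cell-cycle homology element, TTTGAA or TTCGAA, known from genes of mitosis, was in 5 (background 6.27%): Mcm2, Mcm7, Gins3, Pola2 and Rrm1. NRF1's CGCATGCG was in 1 (background 2.57%), YY1's AAGATGGC in 1 (background 3.72%) and the CREB and ATF word TGACGTCA in 2 (background 2.46%). Matches on either strand were counted, and a match is a description of letters, not of a bound factor.

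The E2F word was also common in a list of 51 other replication and nucleotide genes, in 13 of 51 (25.5%), including Pole2, Timeless, Tipin, Clspn, Gmnn and Uhrf1. In 30 mitosis genes it was in 1, Cdk1, and in 14 proteasome core genes in 0. With the replicate 2 summit these counts were 11 (without Pole2 and Gmnn), 0 and 0. CCAAT was in 26 of 51, 23 of 30 and 6 of 14 of these lists. Among the 51, Paics and Ppat had the same promoter signals (9.03 in replicate 1 and 8.95 in replicate 2). Each of them was counted for the E2F word and for CCAAT. The mitosis list had the cell-cycle homology element in 15 of 30, the other replication list in 3 of 51. ETS was in 8 of 51 of the other replication genes and in 14 of 37 of the set (background 15.0%), and the gap was smaller in other windows. From 250 bp before to 50 bp after the 5′ end the counts were 14 of 51 and 14 of 37 (background 15.6%), and in 100 bp around the summit 7 of 51 and 6 of 37 (background 8.69%). The differences between lists were not tested.

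**Figure D2:**
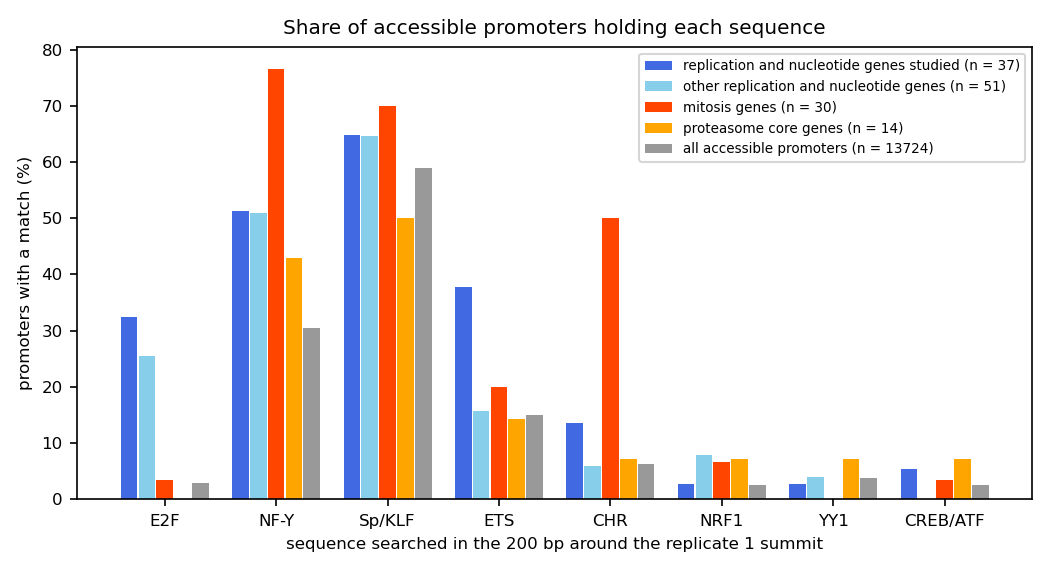
Percentage of accessible promoters (y axis) with each word in the 200 bp around the replicate 1 summit, for the set (n = 37), 3 comparison lists and all 13724 accessible promoters. The E2F bars of both replication lists (32.4% and 25.5%) stand above the 2.91% of all promoters, while the tallest bars for NF-Y and the cell-cycle homology element (CHR) belong to the mitosis genes.

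Nearly all of these promoters were open. A region with its summit within 1000 bp of a protein-coding start was present in both libraries for 37 of 38 genes (97.4%), against 62.8% of all protein-coding genes. All 51 other replication genes, all 30 mitosis genes and all 14 proteasome genes had one too. The exception was Tk1, the thymidine kinase of the salvage pathway. In replicate 1 its region was chr11:117824405-117826186, with a signal of 3.61 and its summit 293 bp from the nearest start. In replicate 2 the region chr11:117824545-117826177, with a signal of 3.44, also covered the start, but its summit was 1287 bp away and so outside the limit. Among the genes inside it, Pcna had the summit farthest from its start, at 476 and 490 bp. Tk1's signal in replicate 1 was below that of all other genes of the set.

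Signal here is the authors' value for a region, read as fold over the caller's background, and a gene is given its strongest promoter region. The median over the 37 genes was 13.0, against 11.2 over the other accessible promoters. By library, the set's median was 12.9 in both replicate 1 and replicate 2, and that of the others was 11.5 and 10.9. The strongest 25% of all accessible promoters included 15 of the 37 (40.5%, background 25.0%) and the weakest 25% included 3. For −log10 q, which grows with depth as well as fold, the top 25% included 16 (43.2%, background 25.0%), and the median was 261 in replicate 1 and 184 in replicate 2. The other accessible promoters had 177 and 124. The range within the set was wide, and genes of the same complex differed.

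**Figure D3:**
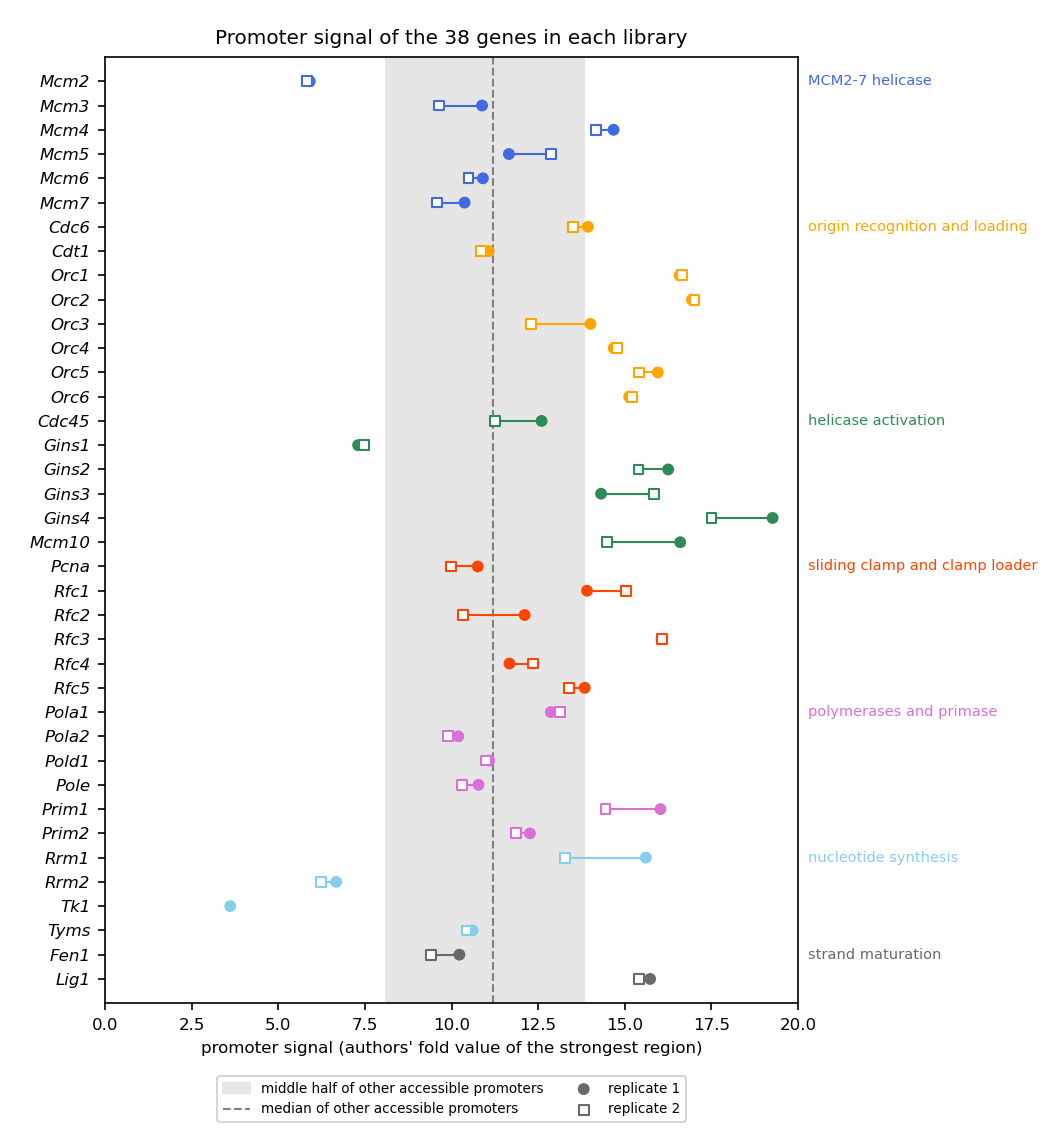
Promoter signal (x axis, the authors' fold value of the strongest region with its summit within 1000 bp of a start) of each gene, by role; filled circles are replicate 1, open squares replicate 2, and the grey band runs from 8.12 to 13.8, the quartiles of other accessible promoters. Gins4 is at the top of the set, Mcm2, Rrm2 and Gins1 lie left of the band in both libraries, and Tk1 has a value in replicate 1 alone.

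The MCM helicase, the ring that unwinds DNA, had moderate promoters with a median of 10.5. Mcm2 was the weakest of the 37, at 5.91 in replicate 1 and 5.84 in replicate 2. Mcm4 was the strongest subunit, at 14.7 and 14.2. Between them, Mcm5 gave 11.7 and 12.9, Mcm6 gave 10.9 and 10.5, Mcm3 gave 10.9 and 9.65, and Mcm7 gave 10.4 and 9.59. The gap between Mcm2 and every other subunit exceeded the spread between libraries, whereas the range of Mcm3 overlapped with those of Mcm6 and Mcm7.

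The genes of origin recognition and loading had a median of 14.95. Orc2, a core subunit of the origin complex, gave 16.9 and 17.0, and Orc1, the subunit with the ATPase that works with Cdc6, gave 16.6 in both. Orc5 (15.96 and 15.4), Orc6 (15.1 and 15.2) and Orc4 (14.7 and 14.8) followed, and Orc3 gave 14.0 and 12.3. The loader Cdc6 gave 13.9 and 13.5. Cdt1, which brings the MCM ring to the origin, was the lowest of the 8 at 11.1 and 10.9. All 6 Orc genes were above the median of other promoters in both libraries.

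Helicase activation genes spread widely. Gins4 was the strongest promoter of the set, at 19.3 and 17.5, which is percentile 99.4 of all accessible promoters. Its partner Gins1, in the same 4-subunit complex, gave 7.30 and 7.48. Gins2 gave 16.3 and 15.4, Gins3 gave 14.3 and 15.8, and Mcm10, a scaffold that links the helicase with primase, gave 16.6 and 14.5. Cdc45 gave 12.6 and 11.3. Gins1 lay below all 5 others by more than the spread between libraries.

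The clamp-loader genes spread around the set's median. Rfc3 gave 16.1 in both libraries, Rfc1, the large subunit, gave 13.9 and 15.0, and Rfc5 gave 13.8 and 13.4. Rfc4 (11.7 and 12.3) and Rfc2 (12.1 and 10.3) were lower. Pcna, the clamp itself, gave 10.8 and 9.99, below the median of other promoters, but its −log10 q of 411 and 264 put it in the top 25% for that measure.

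Among polymerases and primase, Prim1, the catalytic subunit of primase, was highest at 16.0 and 14.4. Pola1 gave 12.9 and 13.1 and Prim2 gave 12.3 and 11.9. Pold1 (11.1 and 11.0), Pole (10.8 and 10.3) and Pola2 (10.2 and 9.89) were, by their means, below the median of other promoters. Among the nucleotide genes, partners of 1 enzyme lay far apart: Rrm1, the large subunit of ribonucleotide reductase, gave 15.6 and 13.3, and Rrm2, its small subunit, gave 6.67 and 6.23. Tyms, which makes thymidylate, gave 10.6 and 10.4. Lig1 gave 15.7 and 15.4, and Fen1, the flap nuclease of the same pathway, gave 10.2 and 9.41.

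Signals of the genes were similar in both libraries. The ratio of replicate 1 to replicate 2 had a median of 1.03 in the set and 1.04 over other genes, and its log2 had an SD of 0.09 across the set and 0.15 across other genes. Replicate 1 was higher in 26 of 37 genes (70.3%), and in 72.0% of the other genes. The largest ratios were those of Rrm1 (1.18), Rfc2 (1.17) and Mcm10 (1.15), and the smallest those of Gins3 (0.90), Mcm5 (0.91) and Rfc1 (0.93). No scaling between the libraries is stated for these values.

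Widths did not follow the order of the signals. The set's median width was 1289 bp, against 1247 bp for other accessible promoters, and 9 of 37 were in the widest 25% (24.3%, background 25.0%). The widest was Pole at 1772 bp in replicate 1 and 2876 bp in replicate 2, so its rank rests on replicate 2. Rrm2 spanned 2198 and 2240 bp, Pola2 2276 and 2014 bp, Cdt1 2015 and 2127 bp, and Pold1 1896 and 1948 bp. The narrowest were Mcm2 (677 and 649 bp), Gins1 (734 and 747 bp) and Rfc4 (907 and 863 bp). Mcm2 and Gins1 were thus both weak and narrow, while Rrm2 was weak and wide. Gins4, the strongest, spanned 1076 and 1054 bp. Polymerase and primase genes had a median of 1686 bp and helicase activation genes 1071 bp.

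**Figure D4:**
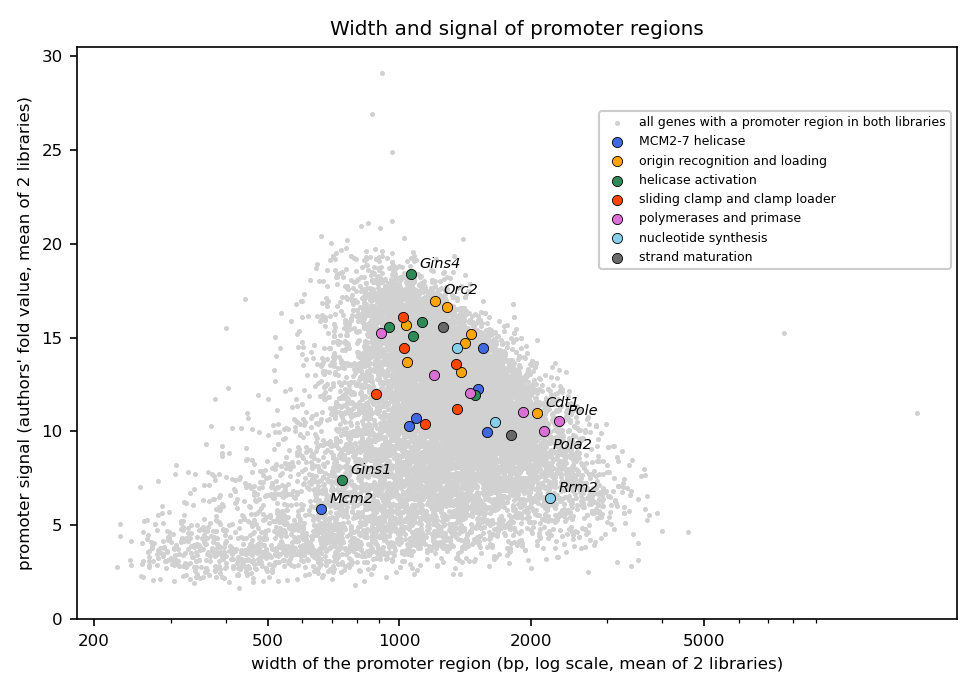
Mean promoter signal over both libraries (y axis, authors' fold value) against mean region width in bp (x axis, log scale) for 37 genes of the set, coloured by role, over all 13724 accessible promoters in grey. Mcm2 and Gins1 sit at the narrow, weak edge, Rrm2 is weak but 2219 bp wide, and Gins4 and Orc2 are high at mean widths of 1065 and 1209.5 bp.

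Summits lay close to annotated starts. The median distance was 64 bp in the set and 81 bp over other genes, and 33 of 37 (89.2%) lay within 150 bp, against 70.2% of all accessible promoters. The 4 farther out were Pcna, Cdt1, Gins1 and Rfc5. The summit of Gins1 was 160 bp downstream in both libraries and that of Cdt1 was 146 and 190 bp upstream. Rfc5 had its summit 41 bp downstream in replicate 1 and 405 bp downstream in replicate 2. Rrm2 moved too, from 220 to 12 bp downstream. In replicate 1, 22 of 37 summits (59.5%) were upstream of the start, and 58.6% over other genes, and 5 of the 6 MCM genes were among them. The bases under the summits were alike in composition: the median GC content in 200 bp was 64.0% in the set and 65.5% in other genes, with 18 and 17 CpG dinucleotides. The lowest GC contents were those of Mcm3 (51.0%) and Cdc45 (51.5%), and the highest was that of Rfc5 (75.5%).

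A neighbour read in the opposite direction from within 1000 bp was annotated for 9 of 38 genes (23.7%), against 9.87% of all protein-coding genes. Among genes with an accessible promoter these shares were 9 of 37 (24.3%) and 14.8%. The pairs were Mcm4 with Prkdc, a DNA repair kinase, Mcm7 with Ap4m1, Orc1 with Prpf38a, Orc3 with Rars2, Orc4 with Mbd5, Cdc45 with Ufd1, Pole with Pxmp2, Lig1 with Zswim9 and Fen1 with Tmem258. The signal of such a region belongs to both genes and cannot be divided between them. Counting only the outermost start of each gene left 5 of them (background 6.77%).

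Away from the starts, 103 shared regions lay in the bodies and 20 kb flanks of the 38 genes, and none was counted for more than 1 of them. The median was 3 per gene, against 2 for other protein-coding genes, and 35 of 38 (92.1%) had at least 1, against 71.7% of all. Among genes with an accessible promoter the median was 3 in the 37 genes and 3 over all 13724, and 34 of 37 (91.9%) had at least 1, against 88.4%. Shared regions that had to overlap by 50% each way gave a median of 2 in the set and 2 in other genes. Since long genes hold more regions, each gene was also set against the median of its class of locus length (10 classes of equal size): 16 of 38 were above it (42.1%, background 43.0%), 13 equal and 9 below. Of the 37 with an accessible promoter, 15 (40.5%) were above it, against 53.6% of all such genes. Mcm7, Gins4 and Rfc5 had no distal region.

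Cdc6 had the most distal regions, 8, against a median of 2 for loci of its length. The strongest of them, chr11:98900190-98901133, lies 7.03 kb upstream in an exon of the neighbour Wipf2, with a signal of 11.9 and 12.4, beside 13.9 and 13.5 at the gene's own promoter. The 7 others had signals of 2.35 to 6.03, and 5 of the 8 had their nearest start at Rara, the retinoic acid receptor gene next to it. Prim2 had 7 regions over a locus of 256 kb, with the strongest at chr1:33584277-33584709 and chr1:33565723-33566240, in its introns 85.4 and 103.8 kb from the 5′ end (signals 13.0 and 10.7, and 12.6 and 10.8). Rfc4 had 6, of which chr16:23144110-23144960 (13.5 and 15.2) is intergenic and nearest to the start of Adipoq. Orc3, Gins2, Rfc1, Rrm2, Tk1 and Lig1 had 4 each.

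Tk1, with no promoter in both libraries by the summit rule, thus still had 4 shared distal regions nearby. The strongest distal region of all was chr7:13302133-13303366 in an intron of Lig1, 25.7 kb from its 5′ end, with a signal of 16.2 in replicate 1 and 13.5 in replicate 2 beside 15.7 and 15.4 at the Lig1 promoter. Pcna had an intergenic region of 15.3 and 11.4 at chr2:132230024-132230936, which lies nearest to Tmem230. An Orc3 intron held chr4:34603852-34604471, at 12.7 and 12.2. As a whole the distal regions were weaker than the promoters, with a median signal of 5.54, against 6.56 over all shared distal regions. Of the 103, 62 were in introns, 29 were intergenic and 12 were in exons of protein-coding transcripts. Within the body of the gene itself lay 38, and for 53 the nearest protein-coding start was that gene's own. The same shares were not counted over all 52834 shared distal regions, so none can be called particular to these genes. No file used here links a distal region to a target gene.

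**Figure D5:**
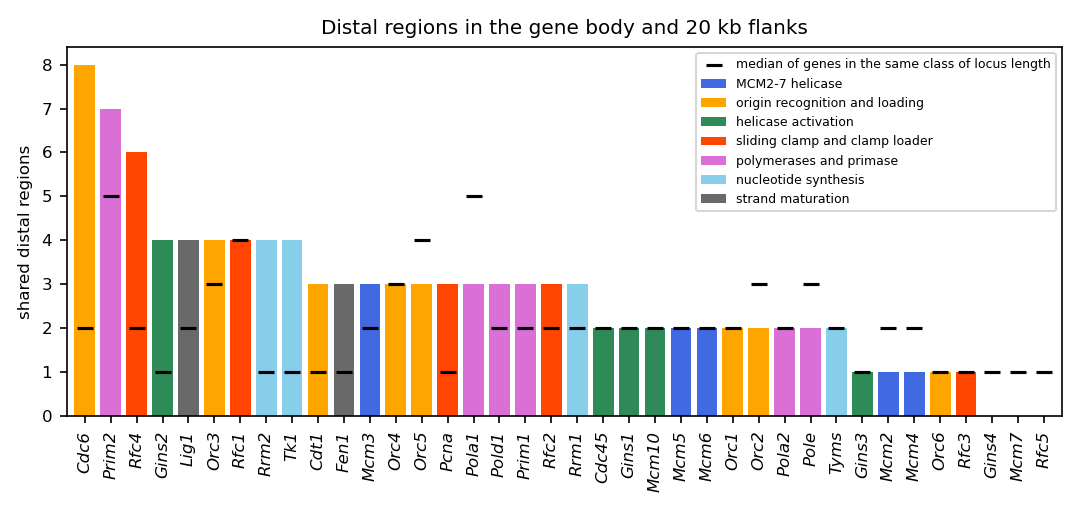
Number of shared distal regions (y axis) in the body and 20 kb flanks of each of the 38 genes, coloured by role; black dashes give the median of protein-coding genes in the same class of locus length. Cdc6, Prim2 and Rfc4 stand above their dashes, Pola1 and Orc5 below theirs, and Gins4, Mcm7 and Rfc5 have none.

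Against the 3 comparison lists, the set's promoters were of a like level. Median signals were 13.2 in the other replication and nucleotide genes, 14.0 in the mitosis genes and 13.4 in the proteasome core genes, beside 13.0 in the set. The strongest of the other replication genes were Dhodh, of pyrimidine synthesis (16.8), and Pole4, a small polymerase subunit (16.4). Cenpf (18.1) and Cdc25c (16.8) led the mitosis genes and Psma2 (18.2) and Psmb2 (16.6) the proteasome genes. T-cell identity genes were lower at their promoters but richer in distal regions: the 9 with a promoter had a median signal of 5.83, the 10 a median of 7 distal regions, and the highest promoter was that of Lck at 10.3. Bcl11b alone had 20 distal regions. The differences between lists were not tested.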

How the data were processed

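Each library came as a deposited narrowPeak list on mm10, derived from the alignments of that library alone per the deposited notes. No source used here names the aligner, the caller or its threshold. Read depth is therefore unknown, and a shift of reads for the transposase could not be checked. The authors' signal value (column 7) was read as a ratio, the fold over local background, and their −log10 p and −log10 q were used as deposited. The authors' score (column 5) was not used for any result.

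Only the standard chromosomes were analysed, with 78016 and 74653 regions. Starts were the 54361 protein-coding transcript starts of GENCODE mouse release 21, and sequence was GRCm38 from RefSeq. A promoter region had its summit within 1000 bp of a start, and a gene took its strongest. Distal regions were regions found in both lists (overlap of 1 bp or more), merged, with a summit farther than 1000 bp from any start, in the gene body or its 20 kb flanks. Words were searched on both strands. Python 3.11.15 with pandas 2.3.3 and numpy 2.4.6 was used, and the matching was tested on simulated data. Medians and shares stand beside those of all genes, with no p-values, since there is 1 group of 2 libraries.

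All 38 genes are named, and the 2 strongest of each comparison list. Genes and lists were chosen with earlier results of these data known. Alternatives were other distances, starts, flanks, windows and overlaps, a minimum −log10 q of 10, the 50000 regions of largest signal, and leaving out each library.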

Additional observations from a re-analysis of the deposited data

How the results depend on the processing

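Of 53 alternatives over 8 results, 42 stayed within the limit set for a change and 11 moved. For the medians of signal, −log10 q, width and summit distance, the limit was the SD between the medians of the 2 libraries. These limits were 0.0032, 54.3, 10.6 bp and 3.54 bp in that order. For the other results the limit was a factor of 1.5. With a median signal of 13.0, almost any shift in signal counted as moved. A −log10 q of 184 without replicate 1, against 234 with both, counted as unchanged. The tally thus depends largely on the limits and does not measure how firm the results are. The limit applied to the set's own value, not to its difference from other genes. An overlap of 50% each way thus counted as unchanged, though the median number of distal regions was then 2 in the set and 2 in other genes. Counting a region with any base within 1000 bp of a start gave 38 of 38 genes, a median signal of 12.6 and a median width of 1319 bp. Using only the 5′ end of each gene as its start gave 35 of 38, against 58.1% of all protein-coding genes. With each library left out in turn, the median signal was 12.7 to 12.9, the median width 1264.5 to 1279 bp and the median summit distance 57 to 62.5 bp. Without replicate 2 these medians were over 38 genes, since Tk1 then counted. Over the 37 genes the median signal in replicate 1 was 12.9. The median number of distal regions fell to 1 both in the gene body alone (other genes 0) and with the 50000 regions of largest signal (other genes 1). Genes with an E2F word numbered 4 in 100 bp around the summit and 22 in the whole promoter region. Divergent neighbours numbered 5 with the outermost start of each gene. No paired analysis was possible because the 2 libraries form 1 group. The unknown depth limits any statement on regions that are missing, and 2 libraries with the same donor record limit what their spread can show.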
